A study of Mus musculus with 9 samples.

Results

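Genes of mouse liver that encode aldo-keto reductases of the branches Akr1b and Akr1c were followed through thioacetamide (TAA) fibrosis and spontaneous recovery. They were Akr1b3, Akr1b7, Akr1b8, Akr1c6, Akr1c12, Akr1c13, Akr1c14, Akr1c18, Akr1c19 and Akr1c20. They were chosen by gene symbol with earlier results of the same 9 libraries known, so their differences between the groups, and the calls of the fit across all genes, are given as a description, with no p-value for a member. These are 10 of the 21873 genes listed. All 10 passed the filter on low values that 14094 genes passed. Akr1b7 and Akr1c18, which were at or near 0 in control liver, passed it through the groups in which they were high.

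Liver RNA came from male C57BL/6 mice, which were 8 weeks old at the start, with 3 mice in each group. Control mice received normal saline intraperitoneally for 8 weeks, TAA mice received 200 mg/kg of the hepatotoxin every 3 days over the same 8 weeks, and both were collected 72 h after the final injection. Recovery mice had the same 8 weeks of TAA and then 8 weeks without it. That adds 8 weeks of age to the recovery group alone, so age and recovery cannot be told apart, and in whole liver RNA fewer cells of a type and less RNA per cell cannot be told apart either.

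Aldo-keto reductases are cytosolic enzymes that use NADPH to reduce aldehydes and ketones to alcohols. The Akr1b branch holds aldose reductase, which turns glucose into sorbitol in the polyol pathway, and relatives that act mainly on lipid aldehydes and prostaglandin precursors. The Akr1c branch holds hydroxysteroid dehydrogenases, which switch steroid hormones between active and inactive forms, and several of its members belong to the abundant enzymes of hepatocytes.

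Both branches lie as gene clusters in the genome (mm10 coordinates, as deposited with the values). The 3 Akr1b genes stand within 120.7 kb of chromosome 6. Akr1b3 (chr6:34302434-34317478, minus strand) is followed by Akr1b8 (chr6:34354119-34368463, plus strand) and Akr1b7 (chr6:34412334-34423142, plus strand). The 7 Akr1c genes stand within 474.3 kb of chromosome 13. Their order is Akr1c14 (chr13:4049011-4090688, plus), Akr1c18 (chr13:4132615-4150654, minus), Akr1c13 (chr13:4191150-4205596, plus), Akr1c19 (chr13:4228700-4252843, plus), Akr1c12 (chr13:4268176-4279433, minus), Akr1c6 (chr13:4434306-4457877, plus) and Akr1c20 (chr13:4486849-4523345, minus). Akr1c18, the member that differed most between the groups, thus lay between Akr1c14 and Akr1c13, which were expressed in every library. It was 41926 bases from the former and 40495 bases from the latter.

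The nearest relatives of the set were Akr1c12 and Akr1c13, whose longest open reading frames (972 bases each) were 96.2% identical. Akr1c6 and Akr1c20 came next with 92.3%, while Akr1b7 and Akr1b8 (951 bases each) shared 84.9%. The likeness of Akr1c12 and Akr1c13 extended upstream of the genes. Within libraries, the ratio of Akr1c13 to Akr1c12 levels was higher in each TAA mouse than in any other mouse. Neither gene met the criteria for a change in TAA. Because of this ratio, the stretches of both genes before the annotated gene start are printed here. Both are 5′ to 3′ from RefSeq (GRCm38.p6), ending 1 base before the gene, at chr13:4279434-4279649 on the minus strand for Akr1c12 and chr13:4190937-4191149 on the plus strand for Akr1c13. Capitals mark the bases that differ or have no partner in the other stretch.
Akr1c12: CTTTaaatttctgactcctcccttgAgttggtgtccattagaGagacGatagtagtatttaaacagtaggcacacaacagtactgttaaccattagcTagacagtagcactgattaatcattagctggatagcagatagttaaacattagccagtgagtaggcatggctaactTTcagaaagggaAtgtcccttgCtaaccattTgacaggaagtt
Akr1c13: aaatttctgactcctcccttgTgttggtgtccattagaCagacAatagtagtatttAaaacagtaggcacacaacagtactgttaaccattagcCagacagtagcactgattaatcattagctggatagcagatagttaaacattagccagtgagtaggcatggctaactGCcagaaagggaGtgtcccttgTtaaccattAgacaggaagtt
Of 212 aligned bases, 9 were substituted. Because the transcripts are so alike, reads could be assigned to the wrong gene of this pair: 7.10% of all 150-base windows of the Akr1c12 transcripts also occurred in Akr1c13, and 5.60% of those of Akr1c13 in Akr1c12. No 150-base window was shared between other members, so the levels of Akr1c12 and Akr1c13 are the less certain ones.

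The upstream stretches of 4 more genes are printed since these genes met the criteria for a change in TAA, 3 of them upward and Akr1c6 downward. RefSeq's promoter table held 8 of the 10 genes. The 250 bases before each RefSeq start were searched on both strands for the antioxidant response element core TGACNNNGC, the AP-1 site TGANTCA, the TATA box TATAAA, the CCAAT box CCAAT and the nuclear receptor half-site AGGTCA. Capitals mark matches, read on either strand, and each stretch ends 1 base before the annotated gene. They lie at chr13:4150655-4150896 (minus) for Akr1c18, chr6:34412112-34412333 (plus) for Akr1b7, chr6:34353896-34354118 (plus) for Akr1b8 and chr13:4434093-4434305 (plus) for Akr1c6.
Akr1c18: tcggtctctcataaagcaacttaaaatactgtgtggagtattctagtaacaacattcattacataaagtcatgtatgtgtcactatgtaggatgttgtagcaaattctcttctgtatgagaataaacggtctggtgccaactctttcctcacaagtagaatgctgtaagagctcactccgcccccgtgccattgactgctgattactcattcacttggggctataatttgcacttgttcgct
Akr1b7: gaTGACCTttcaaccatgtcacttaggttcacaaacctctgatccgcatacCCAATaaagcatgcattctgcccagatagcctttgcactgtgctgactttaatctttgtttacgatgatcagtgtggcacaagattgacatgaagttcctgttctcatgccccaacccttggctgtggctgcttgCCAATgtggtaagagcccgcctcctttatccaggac
Akr1b8: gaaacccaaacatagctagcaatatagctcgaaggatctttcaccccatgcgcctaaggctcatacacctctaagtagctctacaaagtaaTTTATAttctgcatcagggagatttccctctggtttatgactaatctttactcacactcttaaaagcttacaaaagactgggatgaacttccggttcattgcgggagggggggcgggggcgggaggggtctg
Akr1c6: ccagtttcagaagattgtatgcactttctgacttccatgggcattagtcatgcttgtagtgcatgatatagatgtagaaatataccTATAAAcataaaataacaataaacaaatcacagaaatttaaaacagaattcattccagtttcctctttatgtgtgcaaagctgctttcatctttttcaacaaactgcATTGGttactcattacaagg
Akr1b7 held a pair of CCAAT boxes, starting at -199 and -64 from the RefSeq start, and a half-site at -248. Akr1b8 held a reversed TATA box at -159. Akr1c6 held a TATA box at -164 and a reversed CCAAT box at -57. Akr1c14 and Akr1c19, whose stretches are not printed, each held a reversed CCAAT box, at -152 and -172. None of the letters searched occurred in the windows of Akr1c12, Akr1c13 or Akr1c18, and neither the antioxidant response core nor the AP-1 site occurred in any of the 8. Among 32851 promoters of the same length these motifs were found in 10.2% (antioxidant response core), 6.75% (AP-1), 12.4% (TATA box), 33.9% (CCAAT box) and 14.0% (half-site). A match or its absence in these windows is a description of the letters only.

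The values are deposited FPKM (fragments per gene, corrected for gene length and library size), divided here by 1 factor per library, the median ratio to the geometric mean over genes above 0 in all libraries. The factors were 0.827 to 0.878 in control, 1.29 to 1.38 in TAA and 0.893 to 0.907 in recovery. Without them the median of all genes was 0.63 higher in TAA than in control on the log2 scale, against 0.02 with them. The size and at times the sign of a difference in level thus turn on the scaling. A ratio of FPKM within a library is the same with or without these factors, but not after quantile normalization, which moves each gene of a library by its own amount. The spacing of low FPKM gave an approximate depth of 26.8 to 40.6 M fragments per library, although only 51.1% to 60.9% of these low values came within 0.08 of a whole fragment. The libraries held the markers of liver: 7 of 7 hepatocyte genes were above 0 in all 9, with summed scaled FPKM of 40980 to 45590 in control, 21720 to 28630 in TAA and 47990 to 51400 in recovery. Most of the hepatocyte sum was Alb, at means of 28330, 20460 and 35140, and this sum too depends on the factors. Summed cholangiocyte markers (7 genes) were at 15.7 to 21.0, 295 to 443 and 27.9 to 38.4. Most of that sum was Spp1, at 415, 284 and 274 in TAA mice 1 to 3. Summed stellate cell and myofibroblast markers (7 genes) were at 33.6 to 41.0, 203 to 260 and 31.7 to 42.6. These sums moved with the groups, as the members did, and their part in the members' differences was not tested. TAA replicate 3 stood apart, with summed skeletal muscle markers at 40.4 against at most 0.472 elsewhere. Control replicate 1 also differed from the other controls. It had lower summed markers of macrophages (55.9 against 112 and 117), endothelial cells (34.6 against 59.2 and 57.2) and lymphocytes (1.21 against 3.36 and 2.89). The macrophage list did not move as a whole. Trem2 was higher in this mouse (7.10 against 0.302 and 0.389), as were Adgre1 (7.41 against 6.47 and 6.54) and Cd68 (5.25 against 3.276 and 3.365). The highest control values of the 6 abundant Akr1c genes were all from this mouse, and the part of these transcripts in them was not tested.

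In control liver the Akr1c branch dominated. Akr1c6 had the highest scaled FPKM of the set, 502 ± 108 (mean ± SD, n = 3 in this and all later group means), followed by Akr1c14 with 175 ± 43.1 and Akr1c19 with 88.6 ± 26.2. Akr1c12 (57.4 ± 5.11) and Akr1c13 (56.2 ± 10.2) did not differ beyond their spread, and Akr1c20 followed with 38.7 ± 8.89. Among these 6 genes, Akr1c12 and Akr1c13 were the only neighbours in the order that overlapped between mice. The Akr1b genes stood far below them, with Akr1b3 at 2.86 ± 0.32 and Akr1b8 at 1.28 ± 0.154. Akr1b7 and Akr1c18 were at 0 or near it. The FPKM of a gene depends on the length counted for it. That length may weigh most on Akr1b3, whose annotated exons sum to 8384 bases over 6 transcripts, against 1207 to 5892 bases for the other members.

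**Figure D1:**
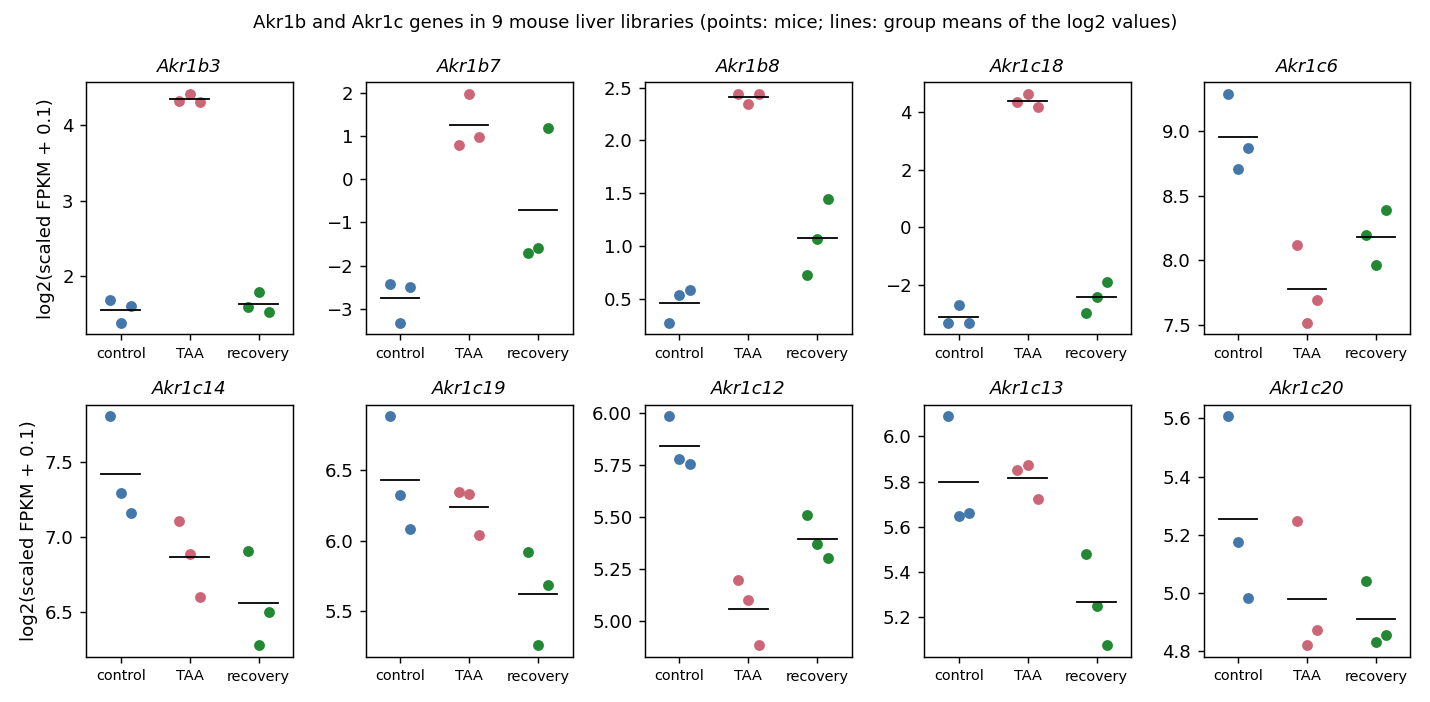
Scaled FPKM of the 10 genes on the log2(value + 0.1) scale (vertical axes, 1 range per panel) in 3 control, 3 TAA and 3 recovery mice (horizontal axes), with points for mice and lines for group means of the log2 values. Akr1b3, Akr1b8 and Akr1c18 lie higher in TAA than in both other groups, whereas Akr1c6 and Akr1c12 lie lower in TAA than in control at this scaling (with quantile normalization the Akr1c6 difference becomes 0.0045).

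The first comparison asked which of these enzymes differ between fibrotic and control liver. A gene was called when limma's adjusted p, over all 14094 genes, was under 0.05 and the change was at least 2-fold. In TAA 4 of the 10 members were called higher, where 17% of all genes tested were. One was called lower, against 8.02% of all genes. The 4 called higher were Akr1c18 and the 3 Akr1b genes, that is, the members with the lowest levels in control liver. Both counts were the same without TAA replicate 3, the library with muscle transcripts, and without control replicate 1. The median log2 fold change of the 10 was -0.09, beside 0.02 over all genes, and it became 0.55 with FPKM as deposited, 0.54 with quantile normalization and 0.10 without control replicate 1. Over all genes the median became 0.63, -0.04 and 0.01. Since the members were chosen with this contrast known, nothing is read from these counts.

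Akr1c18, which inactivates progesterone and is best known from the corpus luteum of the ovary, was the member with the largest difference. Its scaled FPKM was 0, 0.0540 and 0 in control mice 1 to 3, and 20.6, 24.8 and 18.2 in the TAA mice. In recovery it was back at 0.0285, 0.0861 and 0.171. Every TAA library thus lay far above every other library. In fragments, with the estimated depth, the TAA values correspond to about 1166 to 1540, and the control values to 0 to about 1.97. The log2 fold change was 7.52 (SE 0.22) for TAA against control and -6.82 (SE 0.27) for recovery against TAA. Both depend on the added 0.1 and are no bound. Recovery exceeded control by 0.69 (SE 0.33), with overlapping mice, and was not called. From a gene listed at or near 0 in control, Akr1c18 reached 0.0994 ± 0.0325 of the FPKM of Akr1c6 in the same TAA libraries, a ratio of deposited FPKM that the factors leave as it is.

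Akr1b3 is aldose reductase, the enzyme of the polyol pathway. In scaled FPKM it was at 3.13, 2.51 and 2.94 in control, 19.96, 21.3 and 19.8 in TAA, and 2.92, 3.37 and 2.78 in recovery. The 3 TAA mice lay within a narrow range, apart from all 6 others, while control and recovery overlapped. The log2 fold change of TAA against control was 2.79 (SE 0.11), a mean level 7.11-fold as high, and that of recovery against TAA was -2.71 (SE 0.11). Recovery against control was 0.08 (SE 0.14), and its sign turned when control replicate 2 was left out (-0.01).

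Akr1b8 encodes an aldose reductase-like protein known to be induced by fibroblast growth factor. Scaled FPKM of Akr1b8 was 1.11, 1.35 and 1.39 in control, 5.34, 4.99 and 5.33 in TAA, and 1.55, 1.996 and 2.63 in recovery. The groups formed an order without overlap, with recovery between control and TAA. TAA exceeded control by 1.95 on the log2 scale (SE 0.13), and recovery was lower than TAA by -1.33 (SE 0.18). The remaining difference between recovery and control, 0.62 (SE 0.21), was not called.

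Akr1b7, first known as a protein of the vas deferens and also a marker of the adrenal cortex, was the least uniform. Its scaled FPKM was 0.0860, 0 and 0.0792 in control, 1.62, 3.82 and 1.86 in TAA, and 0.209, 0.230 and 2.16 in recovery. TAA mice lay above all control mice, but recovery replicate 3 lay within the TAA range while the other recovery mice lay well below it. TAA against control gave a log2 fold change of 3.99 (SE 0.38), which depends on the added 0.1. Recovery against TAA gave -1.95 (SE 0.74), which was not called with all mice and was called without recovery replicate 3 (-2.89, SE 0.36). Recovery replicate 3 was also the only library with Cyp11a1 (0.618 scaled FPKM) or Mc2r (0.0336) above 0, both genes of adrenal steroid production and its hormonal control. It also had the highest Cyp11b1 (0.719 against at most 0.0808), Nr5a1 (0.0912 against at most 0.0246) and Star (1.11 against at most 0.758). Of 8 adrenal cortex markers 3 were above 0 in all libraries, and their sum, most of it Mrap, was 25.1 to 31.8 in control, 40.8 to 51.3 in TAA and 39.4 to 51.01 in recovery. Cyp21a1, on the same list, was at 3.07 to 5.99 in the TAA mice, in which Cyp11a1 and Cyp11b1 were listed at 0. The part of these transcripts in the Akr1b7 value was not tested.

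**Figure D2:**
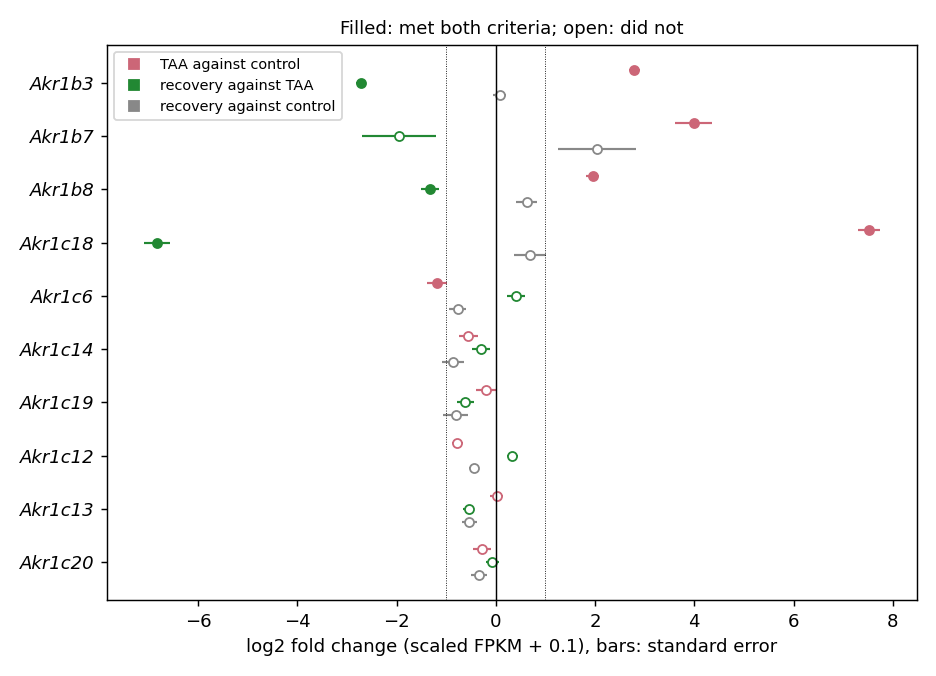
Log2 fold change of each of the 10 genes (horizontal axis, bars for the standard error) in the 3 comparisons, fitted with limma on log2(scaled FPKM + 0.1). Filled points met both criteria: 4 genes higher and Akr1c6 lower in TAA against control (Akr1c6 is not called with FPKM as deposited or quantile normalization), and Akr1b3, Akr1b8 and Akr1c18 lower in recovery against TAA.

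Among the genes that control liver expressed highly, Akr1c6 was the one called lower in TAA. It is a hydroxysteroid dehydrogenase that interconverts weak and potent oestrogens and androgens. The values were 624, 417 and 466 scaled FPKM in control, 278, 183 and 206 in TAA, and 293, 250 and 334 in recovery. TAA mice lay below all control mice, and recovery mice lay below control too, overlapping TAA. The log2 fold change of TAA against control was -1.18 (SE 0.20), but it was -0.54 with FPKM as deposited and 0.0045 with quantile normalization. Recovery against TAA was 0.41 (SE 0.18) and turned to -0.15 and -0.59 under these same scalings. Recovery against control was -0.77 (SE 0.18), -0.69 and -0.58, and was not called under any of the 3.

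Akr1c12 and Akr1c13, the near-identical pair, parted in TAA. Akr1c12 was at 63.2, 54.8 and 54.0 in control, 36.6, 34.3 and 29.4 in TAA, and 45.5, 41.3 and 39.4 in recovery. These 3 groups did not overlap, and recovery lay between the others. Akr1c13 was at 68.0, 50.1 and 50.6 in control, 57.6, 58.5 and 52.7 in TAA, and 44.5, 37.9 and 33.6 in recovery. Its TAA mice lay within the control range, and its recovery mice below both. The log2 fold change of TAA against control was -0.78 (SE 0.11) for Akr1c12, and it kept its sign with FPKM as deposited (-0.14) and quantile normalization (-0.30). For Akr1c13 the value was 0.02 (SE 0.13), against 0.65 and 0.60 under those scalings. Neither gene was called in this contrast. Within libraries, where the factors cancel, the ratio of the FPKM of Akr1c13 to that of Akr1c12 was 1.08, 0.913 and 0.937 in control, 1.58, 1.71 and 1.79 in TAA, and 0.980, 0.919 and 0.852 in recovery. The ratio was thus higher in each TAA mouse than in any other mouse. Recovery against TAA was 0.33 (SE 0.11) for Akr1c12, with -0.23 and -0.06 under the other scalings, and -0.55 (SE 0.12) for Akr1c13, which was called as deposited (-1.11) and with quantile normalization (-1.04).

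Akr1c14 reduces the potent androgen dihydrotestosterone and is a major hydroxysteroid dehydrogenase of rodent liver. Its scaled FPKM was 224, 157 and 143 in control, 138, 118 and 97.2 in TAA, and 120, 77.5 and 90.3 in recovery. TAA mice lay just below control mice, and recovery overlapped TAA. The log2 fold change of TAA against control was -0.56 (SE 0.19) and turned to 0.08 and 0.22 with FPKM as deposited and quantile normalization. It was -0.36 without control replicate 1. Recovery against TAA was -0.30 (SE 0.18), with -0.86 and -0.96 under the other scalings, and recovery against control was -0.86 (SE 0.22), with recovery mice below all control mice.

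Akr1c19 was at 118, 80.2 and 67.7 in control, 81.2, 80.6 and 65.6 in TAA, and 60.4, 38.2 and 51.4 in recovery. Control and TAA overlapped, and the recovery mice were the lowest. TAA against control was -0.19 (SE 0.20), which turned to 0.45 with FPKM as deposited, 0.48 with quantile normalization and 0.03 without control replicate 1. Recovery against TAA was -0.62 (SE 0.17), and was called as deposited (-1.18) and with quantile normalization (-1.20). Recovery against control was -0.81 (SE 0.24).

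Akr1c20, the relative of Akr1c6 next to it on the chromosome, was called in no comparison under any of the 3 scalings. The mice had scaled FPKM of 48.6, 36.0 and 31.5 in control, 37.8, 28.2 and 29.2 in TAA, and 32.9, 28.4 and 28.9 in recovery. All 3 groups overlapped. TAA against control was -0.27 (SE 0.18), turning to 0.36 and 0.18 with FPKM as deposited and quantile normalization. Recovery against TAA was -0.07 (SE 0.13), with -0.63 and -0.44 under these scalings and 0.06 without TAA replicate 1, and recovery against control was -0.34 (SE 0.16).

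**Figure D3:**
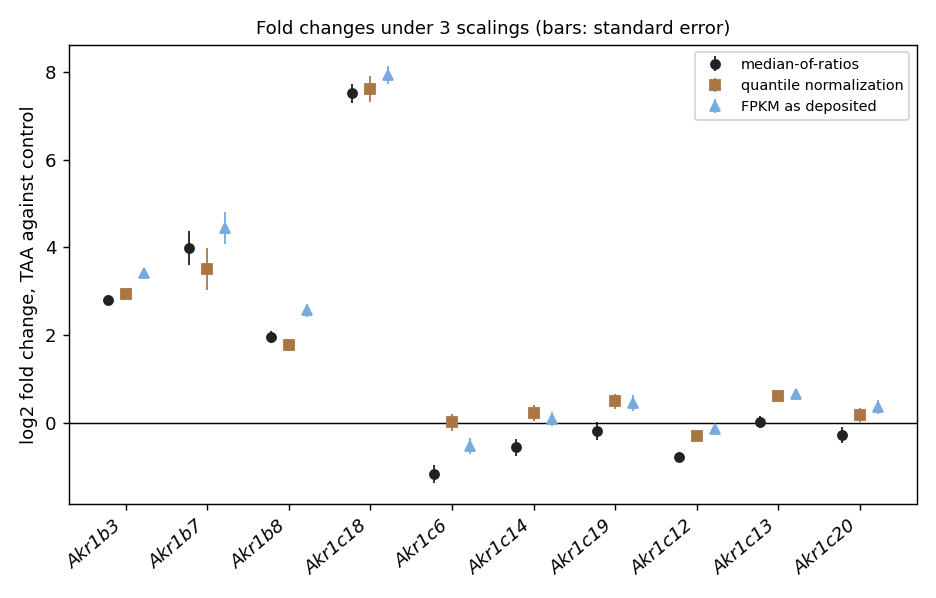
Log2 fold change of TAA against control (vertical axis, bars for the standard error) of each gene under median-of-ratios scaling, quantile normalization and FPKM as deposited. The 3 Akr1b genes and Akr1c18 stay above 1 under all 3, whereas Akr1c6, Akr1c14, Akr1c19 and Akr1c20 do not keep their sign.

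The make-up of the set within each library, computed from FPKM, does not depend on the factors, although it would change under quantile normalization. The 3 Akr1b genes together took 0.466% ± 0.0834 of the summed FPKM of the 10 genes in control, 4.84% ± 0.756 in TAA and 1.08% ± 0.269 in recovery. Akr1c18 took 3.04%, 4.46% and 3.47% in the TAA mice and at most 0.0292% in any other. The share of Akr1c6 was 54.5% ± 2.44 in control, 37.7% ± 4.38 in TAA and 52.7% ± 4.18 in recovery, and no TAA mouse overlapped the other groups. The share of Akr1c13 was 6.12% ± 0.186, 9.68% ± 1.03 and 7.02% ± 1.14, and that of Akr1c19 was 9.52% ± 1.08, 13.0% ± 1.31 and 8.94% ± 1.04. The share of Akr1c14 overlapped between all groups, at 17.5% to 19.7% in control, 18.5% to 21.2% in TAA and 15.4% to 20% in recovery. Relative to Akr1c6 in the same libraries, Akr1c14 was at 0.347 ± 0.0362, 0.537 ± 0.0953 and 0.330 ± 0.0717, and Akr1c20 at 0.0773 ± 0.00944, 0.144 ± 0.0093 and 0.104 ± 0.0154. The summed scaled FPKM of the set was 922 ± 198 in control, 586 ± 79.6 in TAA and 555 ± 67.0 in recovery. Unlike the shares, this sum depends on the factors. As deposited, the mean FPKM of Akr1c6 was 427 in control, 295 in TAA and 263 in recovery. In the same order it was 148, 156 and 86.4 for Akr1c14, and 75.2, 100 and 45.0 for Akr1c19.

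**Figure D4:**
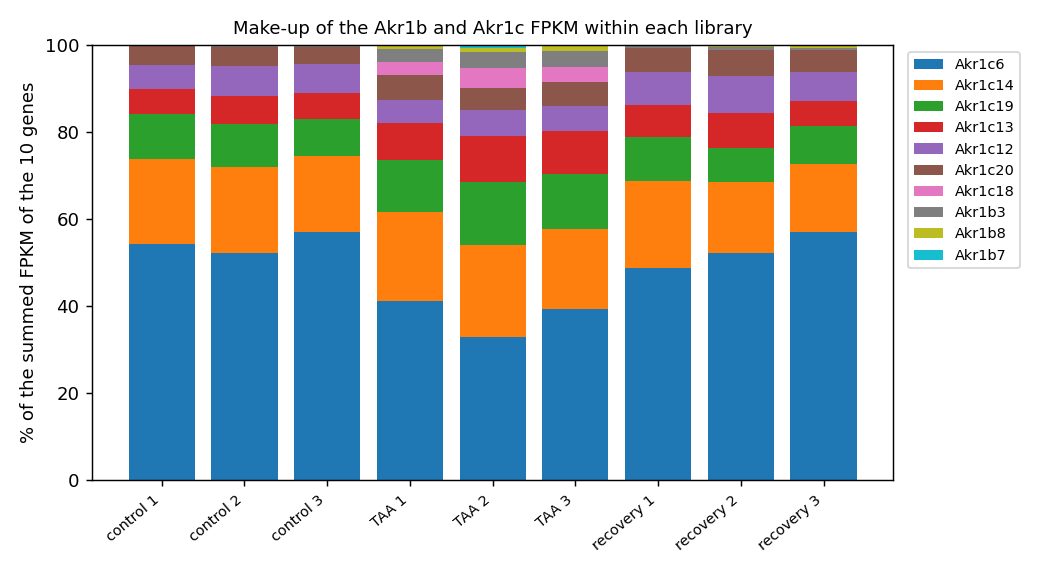
Share of each gene in the summed FPKM of the 10 genes (vertical axis, percent) in the 9 libraries (horizontal axis). Akr1c6 fills 52.2% to 57.0% of the control bars and 32.8% to 41.1% of the TAA bars, where Akr1c18 and Akr1b3 become visible.

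In the second comparison, of recovery with TAA, none of the 10 members was called higher by limma, against 7.12% of all genes, and 3 were called lower (Akr1b3, Akr1b8 and Akr1c18), against 14.3%. At an unadjusted p under 0.05, 1 was higher and 6 were lower. The share of all genes at that p is not given, and nothing is read from these counts. The count called lower became 4 without recovery replicate 3, which added Akr1b7, and stayed at 3 without TAA replicate 3. With FPKM as deposited it was 6, where 3728 of all 14094 genes were called lower (2014 with the main scaling). With quantile normalization it was 5, where 1407 genes were. Tested against a 2-fold change, Akr1b8 lost its call and 2 remained. The median log2 fold change was -0.58, beside -0.01 over all genes, and it was -1.14 with FPKM as deposited and -1.12 with quantile normalization. The medians over all genes under these scalings were -0.55 and 0.04. Both comparisons use the same TAA libraries, so they are not independent of each other.

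In the third comparison, of recovery with control, limma called none of the 10 higher or lower, where 0.582% and 0.412% of all genes were called. At an unadjusted p under 0.05, 2 members were higher and 5 lower. Again nothing is read from these counts, since the members were chosen with the results known. The median of the set was -0.39 on the log2 scale, beside 0.01 over all genes, and -0.32 with FPKM as deposited and -0.31 with quantile normalization. Over all genes these scalings gave 0.08 and -0.002. Akr1c6, Akr1c12, Akr1c13, Akr1c14 and Akr1c19 had every recovery mouse below every control mouse. Akr1b7 and Akr1b8 had every recovery mouse above every control mouse. The share of all genes separated in this way is not given, so nothing is read from these separations.

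By likeness over the 9 libraries (Pearson's r of log2 values, given as a description), the genes nearest to Akr1c18 were Pgd (r = 0.999), Cyp4f16, Ercc6l, Ifnlr1 and Tagln2 (0.996 to 0.998). Pgd encodes phosphogluconate dehydrogenase, which makes the NADPH that aldo-keto reductases use. Its scaled FPKM was 10.3, 11.95 and 10.2 in control, 61.7, 73.0 and 68.0 in TAA, and 11.4, 12.9 and 14.3 in recovery. Nearest to Akr1c6 were Rap2a (0.998), Sirt7 (0.977), Cog4 (0.976), Lamtor4 (0.967) and Ptcd2 (0.965). The points share their library and group, so these values rest mostly on the difference between the groups.

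Besides the members, 10 other genes of the superfamily were in the table, 8 of them above the filter. Akr1b10, which lies between Akr1b8 and Akr1b7, rose in TAA by 1.48 on the log2 scale (SE 0.23, limma adjusted p = 0.00125) and fell by 1.41 in recovery against TAA (adjusted p = 0.00222). With quantile normalization its rise was 0.98, under the 2-fold criterion. The potassium channel beta subunits Kcnab1 (1.73, adjusted p = 0.0063) and Kcnab2 (1.11, adjusted p = 0.017) rose too, at TAA means of at most 0.772 scaled FPKM. Neither was called with quantile normalization, and Kcnab2 was not called without control replicate 2 (0.86), TAA replicate 1 or TAA replicate 3 (1.05). Kcnab1 fell by 1.67 in recovery (adjusted p = 0.00948), with -0.96 and no call under quantile normalization. The general aldehyde reductase Akr1a1 was at 177 ± 11.6, 183 ± 5.55 and 166 ± 12.3, with a TAA difference of 0.05 (SE 0.09). With quantile normalization Akr1a1 was called higher in TAA (1.04) and lower in recovery against TAA (-1.03), so its call turns on the scaling. The bile acid enzyme Akr1d1 was at 54.4 ± 21.2, 35.5 ± 6.74 and 62.2 ± 11.2 and was not called (-0.56, adjusted p = 0.135). Akr7a5 differed by -0.84 (adjusted p = 4.36e-04), short of 2-fold. Akr1e1 (0.06, adjusted p = 0.745) and Kcnab3 were not called, and Akr1c21 and Akr1cl were below the filter.

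A list of NADPH supply held 10 genes, though Tkt, Taldo1 and Pgls do not encode enzymes that form NADPH themselves. Of the 10, 3 rose in TAA and 1 was called lower, with a median of -0.02. With FPKM as deposited and with quantile normalization 4 were called higher and 1 lower, and the median was 0.61 and 0.68. Pgd rose by 2.63 (SE 0.10, limma adjusted p = 3.62e-06), G6pdx, the entry enzyme of the pentose phosphate pathway, by 2.16 (SE 0.11, adjusted p = 1.07e-05) and Tkt by 1.02 (SE 0.10, adjusted p = 1.39e-04). In recovery against TAA, Pgd fell by 2.39 (adjusted p = 7.56e-06) and G6pdx fell by 1.79 (adjusted p = 3.41e-05). Nnt, the mitochondrial transhydrogenase, was called lower (-3.19, SE 0.86, adjusted p = 0.0157), but its mice fell into separate levels: 50.9, 4.06 and 43.1 in control, 1.95, 2.39 and 2.28 in TAA, and 41.4, 4.37 and 4.26 in recovery. Nnt is known to differ between substrains of C57BL/6, the labels do not name the substrain, and its part in these values was not tested. It was not called without control replicate 3 (-2.66) or without TAA replicate 3. Tkt was not called without TAA replicate 2 (0.93). Me1, Idh1 and H6pd differed by 0.20, -0.24 and -0.74 and were not called.

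Of 11 NRF2 target genes, those of the main transcription factor of the response to electrophiles, 6 rose in TAA and limma called none lower (0 at an unadjusted p under 0.05), with a median of 1.11. The cystine transporter Slc7a11 rose by 6.45 (SE 0.35, limma adjusted p = 1.21e-05) from a control mean of 0.016, the carbonyl reductase Cbr3, also on the list of carbonyl reductases, by 4.08 (SE 0.19, adjusted p = 6.77e-06), the exporter Abcc4 by 2.74 (SE 0.29, adjusted p = 1.82e-04) and Srxn1 by 1.59 (SE 0.19, adjusted p = 3.67e-04). The abundant Ephx1, Gclm and Txnrd1 differed by 0.04, -0.07 and 0.49 and were not called, whereas Gclc rose by 1.11 (adjusted p = 0.0018), and by 0.96 with no call without control replicate 3 or without TAA replicate 2. In recovery against TAA 5 of the 11 fell. With FPKM as deposited and with quantile normalization the count that rose was 8.

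**Figure D5:**
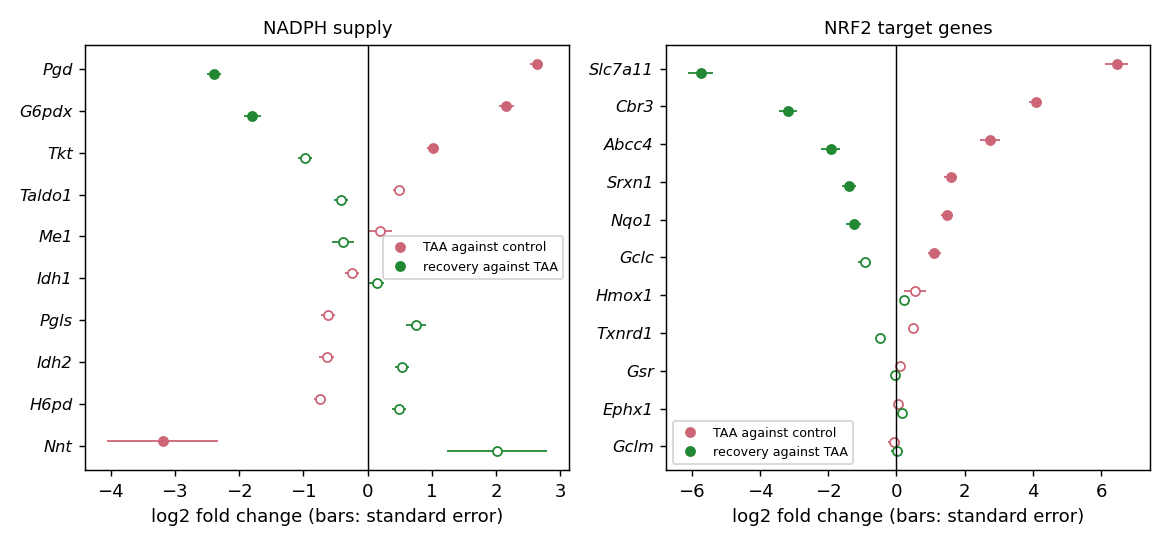
Log2 fold change (horizontal axes, bars for the standard error) of 10 genes of NADPH supply and 11 NRF2 target genes in TAA against control and recovery against TAA, with filled points for genes that met both criteria. Pgd and G6pdx in the one list, and Slc7a11, Cbr3 and Abcc4 in the other, lie farthest to the right in TAA and farthest to the left in recovery.

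Of 7 genes that act beside aldose reductase in the polyol and fructose pathway, limma called none higher in TAA and 2 lower (0 higher and 6 lower at an unadjusted p under 0.05). The fructose transporter Slc2a5 fell by 2.15 (SE 0.25, adjusted p = 3.29e-04). With FPKM as deposited and with quantile normalization 1 of the 7 was called lower, 3 were lower at an unadjusted p under 0.05, and 1 and 2 were higher. The median went from -0.75 to -0.11 and -0.06. Sord, the next enzyme after aldose reductase, was at 523 ± 81.9, 310 ± 30.2 and 381 ± 54.6, a TAA difference of -0.75 that did not reach 2-fold, and Khk and Tkfc differed by -0.67 and -0.03. Of 14 carbonyl reductases outside the superfamily, 3 rose in TAA (Ptgr1 by 4.15, Cbr3 by 4.08 and Dhrs9 by 2.84, adjusted p at most 4.78e-05) and 4 fell, among them Dhrs4 (-1.69) and Dcxr (-1.30). As deposited, 4 rose and 1 fell. Dhrs9 was still higher in recovery than in control by 1.98 (SE 0.16, adjusted p = 0.00902).

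Steroid reductases and hydroxysteroid dehydrogenases outside the superfamily include some that share substrates with the Akr1c enzymes, though not every gene of this list need do so. Of 17 tested, 9 fell in TAA and 2 rose, with a median of -1.07, and in recovery against TAA 7 rose and 1 fell. The 2 that rose became 1 without control replicate 2 or 3 or without any 1 TAA mouse, which left out Hsd17b6. Hsd3b5 fell by 6.56 (SE 0.17, limma adjusted p = 1.38e-06), Hsd17b10 fell by 2.13 (SE 0.14, adjusted p = 2.57e-05), Hsd11b1, which regenerates active glucocorticoid, fell by 2.12 (SE 0.13, adjusted p = 2.07e-05) and Hsd17b11 fell by 2.06 (SE 0.08, adjusted p = 3.98e-06). Hsd3b5 was still lower in recovery than in control (-2.03, adjusted p = 0.0345), a call lost without any 1 control mouse or recovery replicate 3, at -2.15 to -1.98. With FPKM as deposited 5 of the 17 fell in TAA (median -0.43) and 4 rose in recovery, and with quantile normalization 6 fell (median -0.69) and 5 rose. Of 11 genes of prostaglandin synthesis and breakdown, 5 rose in TAA, among them Ptgis (2.26), Hpgds (1.96), Ptges (1.76) and Ptgds (1.43), all at TAA means of at most 4.10 scaled FPKM, and limma called none lower (2 at an unadjusted p under 0.05). With quantile normalization 2 of the 11 rose. Of 15 regulators of these enzymes, limma called none higher in TAA (1 at an unadjusted p under 0.05) and 7 lower, among them the xenobiotic receptor Nr1i3 (-2.72, adjusted p = 2.75e-06) and Nr0b2 (-1.56, adjusted p = 4.78e-05), a repressor of bile acid synthesis. Nfe2l2, which encodes NRF2 and was named after its values were seen, differed by 0.93 (adjusted p = 9.02e-05), short of 2-fold. As deposited, 2 regulators were called higher and 2 lower, and with quantile normalization 1 and 3.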

How the data were processed

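Libraries of liver RNA were sequenced as 150-base reads. Per the submitters' processing notes, HISAT2 2.2.1 and featureCounts 1.5.0-p3 were used with mm10 (GRCm38), and the authors deposited FPKM per gene and library. Counts were not used here, so the count model of the study was replaced. Each library was scaled by its median ratio to the geometric mean over 14005 genes above 0 throughout, 0.1 was added, and genes with a mean deposited FPKM of at least 0.1 were fitted on the log2 scale with limma 3.58.1 in R 4.3.3, with a mean-variance trend and Benjamini-Hochberg adjustment over 14094 genes, per pair of groups. The fit was tested on simulated data. Tables and figures were made with Python 3.11.15. The members and lists were chosen with earlier results of these data known. From each list the 4 genes with the highest mean and up to 4 called genes with the largest TAA difference could be named, and every other superfamily gene was named. Some genes that the rule selects are not reported here. Likeness to Akr1c18 and Akr1c6, the members with the largest differences in each direction, named 5 genes each. Alternatives were the added value, the filter, scaling, shared fits, the trend, a replicate block, a test against 2-fold and leaving out each mouse. The labels do not say that replicate numbers pair mice, and they were not used as pairs.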

Additional observations from a re-analysis of the deposited data

How the results depend on the processing

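With 3 mice a group, and with FPKM in place of counts, the precision of low genes such as Akr1b7 could not be derived from read counts. Members called lower in TAA went from 1 to 0 with FPKM as deposited, with quantile normalization and when tested against 2-fold. Among all 14094 genes the number called lower in TAA went from 1131 to 421, 1311 and 500 under these settings. The Akr1c6 difference of -1.18 turned to 0.0045 with quantile normalization, where the scaling itself is what was changed. Members called lower in recovery against TAA went from 3 to 6 as deposited, 5 with quantile normalization and 2 when tested against 2-fold. Among all genes that count went from 2014 to 3728, 1407 and 683. The fall of Akr1b7 (-1.95) was also called with all 9 libraries in 1 fit. Of 480 member values under alternatives, 451 kept their sign and side of the threshold. Genes called in TAA against control went from 3520 to 1780 with 1 added, 2204 with a mean FPKM of at least 1 and 1441 against 2-fold, and in recovery against TAA from 3017 to 1460, 1895 and 1084. Genes called in recovery against control went from 140 to 80 with 1 added, 48 without a filter, 235 with all 9 libraries in 1 fit, 85 without the trend and 0 against 2-fold. Without 1 mouse that count was between 32 (without recovery replicate 2) and 106; without control replicates 2 and 3 and recovery replicate 3 it was 51, 36 and 39. Of the genes called in TAA against control 67.9% were higher, against 91.2% with FPKM as deposited and 54.9% with quantile normalization; in recovery against TAA the share was 33.2%, 9.89% and 45.4%. With the replicate number as a block, 17 genes were called in recovery against control, and no call of a member changed. Same-numbered mice correlated by -0.07 to 0.12 in their deviations from the group means, so the numbers show no pairing, and the causes of the other changes were not tested.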
